A study of Gossypium hirsutum with 18 samples.

Results

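Alternative oxidases were followed across root and leaf of upland cotton (Gossypium hirsutum) seedlings. Genes were chosen by their deposited description, which had to contain the words alternative oxidase, and selected on their FPKM (fragments per unit of gene length and of library total), which had to be at least 1 in 3 or more of the 18 libraries. The deposited data list 70478 genes. The description is carried by 9 of them, and 8 of these reached that level. Each of the 8 had an FPKM of at least 1 in all 3 libraries of at least 1 untreated group, so none was taken through the treated groups alone. The level of a gene chose it, so its presence is not a result, and the family was chosen with earlier results of these data known.

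RNA was sequenced from 6 groups of 3 libraries: root and leaf of untreated seedlings (CK), and root and leaf of seedlings under the treatments coded AS and SAS. Seedlings were raised in soil and then moved to alkaline solution, and the protocols name 125 mM NaHCO3 and NaOH of the same pH, each for 12 h. Which alkali AS and SAS each denote is not in the labels, nor is the solution or time of the CK seedlings, their cultivar or their age. Separate plants are not mentioned for replicate libraries either, so p-values measure only the spread between libraries, which may be technical. The AS and SAS comparisons of a tissue share the same CK libraries.

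The alternative oxidase is an enzyme of the inner mitochondrial membrane that passes electrons from ubiquinol straight to oxygen. It bypasses complex III, cytochrome c and complex IV, so less energy is stored as a proton gradient, and it keeps the electron carriers from becoming over-reduced when the main chain is slowed. In Arabidopsis, AOX1A is the member best known for its induction by stress and by inhibitors of respiration, and it is widely used as a marker of signalling from mitochondrion to nucleus. A related plastid enzyme, the plastid terminal oxidase, oxidises plastoquinol and supports carotenoid synthesis.

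The deposited descriptions divide the 8 genes into 3 kinds. Alternative oxidase 1A is the description of Gh_A12G2493 (chromosome A12, 87346772 to 87348049, plus strand) and Gh_D12G2621 (D12, 58992715 to 58993988, plus strand). Alternative oxidase 2 is that of Gh_A03G1527 (A03, 95931955 to 95933845, minus strand), Gh_Sca047319G01 (scaffold47319, 71 to 558, plus strand), Gh_A04G0970 (A04, 59316361 to 59319347, minus strand) and Gh_D04G1513 (D04, 47028801 to 47031732, minus strand). Gh_A05G1491 (A05, 15288834 to 15291586, plus strand) and Gh_D05G1662 (D05, 14893737 to 14896472, plus strand) are described as alternative oxidase family proteins, and their deposited gene ontology terms place them at the chloroplast thylakoid membrane. No source used here names the genome build of these positions, and no other gene of the table overlaps any of the 8. The scaffold gene spans 488 bp and lies on no chromosome.

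Upland cotton is an allotetraploid that carries an A and a D subgenome. Genes on chromosomes of the same number with the same description were treated as pairs (A12 with D12, A04 with D04, A05 with D05), from their names and not from sequence. How reads that match both copies were assigned is not stated, so the division between copies of a pair is uncertain, as is that between the 2 AOX2 genes Gh_A03G1527 and Gh_Sca047319G01.

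Library totals ran from 46345805 to 66843791 counts. Levels below are deposited FPKM divided by each library's TMM factor (a scaling that sets the typical gene equal between libraries), called scaled FPKM. Summed over each list, the markers matched the labelled tissues. The 80 leaf markers, genes for light-harvesting proteins and the rubisco small subunit, summed to between 4295 and 19217 scaled FPKM in leaf libraries. In root libraries they summed to between 261 and 794. The 18 listed root markers, high-affinity nitrate transporters and root hair defective genes, summed to between 46.2 and 327 in root and between 4.08 and 23.3 in leaf. Single markers did not all follow their list. Between CK root and CK leaf, 62 of 67 leaf markers tested were lower in root and 5 were higher. Of 9 root markers tested, 6 were higher in root and 1 was lower. Among all 48954 genes tested, 31.4% were higher in root and 34.7% lower. A rubisco small subunit gene, Gh_D03G1402, was higher in root by a log2 of 7.10. In bulk tissue, fewer cells of a type and less RNA per cell cannot be told apart.

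Untreated roots and leaves differed in the levels and the order of the members. In CK root Gh_A12G2493 led, at 173, 297 and 283 scaled FPKM, and its D copy Gh_D12G2621 stood at 16.4, 32.7 and 29.2. In CK leaf Gh_A12G2493 stood at 1.20, 1.42 and 2.34 and Gh_D12G2621 at 0.659, 0.470 and 1.0, the lowest levels of the 8 there. The leading gene of CK leaf was Gh_A03G1527, at 20.3, 19.9 and 18.8, which in CK root was at 3.51, 5.05 and 3.06.

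Between untreated root and leaf, 4 of the 8 were higher in root (31.4% of 48954 genes tested were) and 3 were lower (34.7% of all tested). Gh_A12G2493 was higher by a log2 of 7.24 ± 0.48 (SE, n = 3 libraries a group, adjusted p = 5.69e-09) and Gh_D12G2621 by 5.20 ± 0.44 (adjusted p = 6.04e-08). The family proteins Gh_D05G1662 and Gh_A05G1491 were higher in root by 1.93 and 1.15. The AOX2 genes Gh_Sca047319G01, Gh_A03G1527 and Gh_D04G1513 had log2 differences of -3.31, -2.34 and -1.13, and Gh_A04G0970 did not pass the test (-0.33 ± 0.21, adjusted p = 0.169), although it did with library totals as the only scaling (-0.57, adjusted p = 0.0227). Order within CK root was clear for most neighbours, but the libraries of Gh_A05G1491 and Gh_D12G2621 overlapped, as did those of Gh_A03G1527 and Gh_D04G1513.

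**Figure D1:**
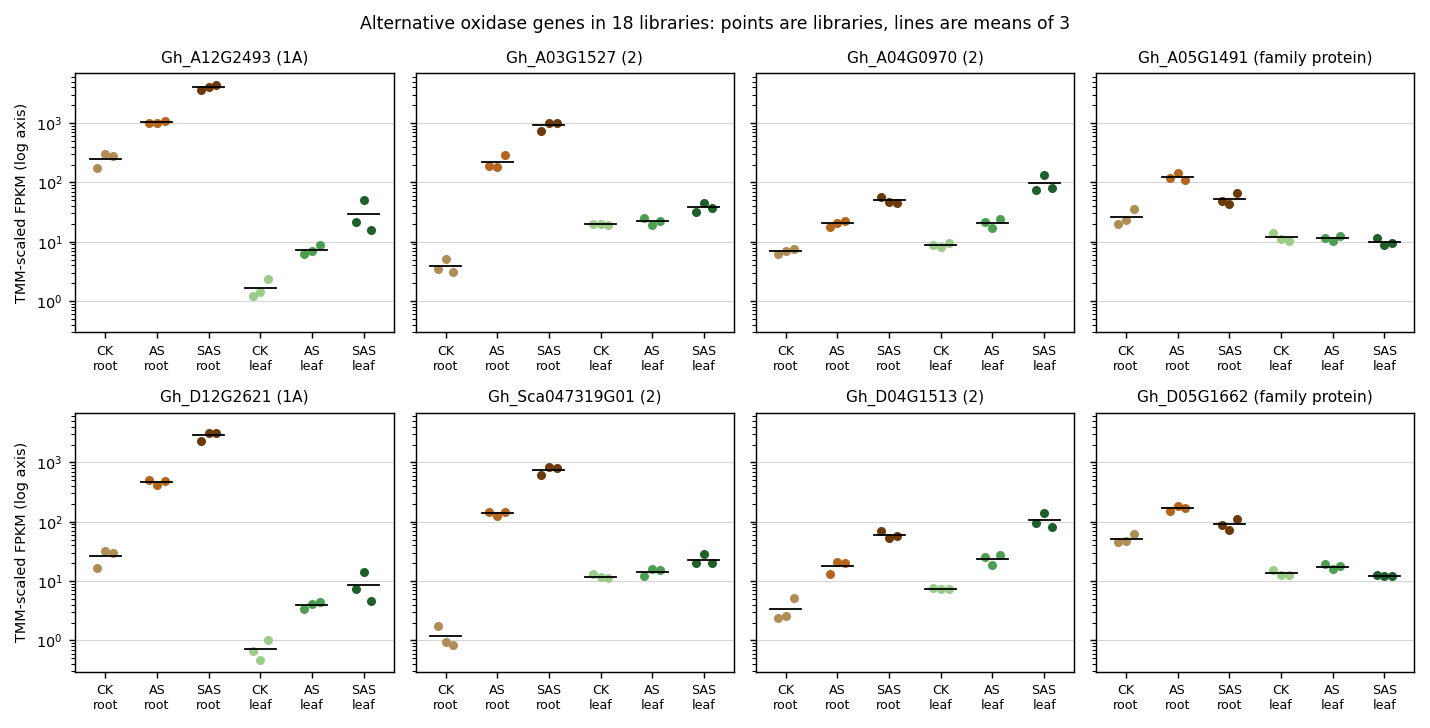
Scaled FPKM (log axis) of each of the 8 genes in the 6 groups, each point a library. Both 1A genes are higher in each root group than in the leaf group of the same treatment, whereas Gh_A04G0970 and Gh_D04G1513 reach their highest mean levels, 96.4 and 106, in SAS leaf.

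In roots all 8 genes rose under AS and all 8 rose under SAS. Among all 39584 genes tested in root, 21.0% were higher and 17% lower under AS, and 28.6% were higher and 28.3% lower under SAS. The median log2 change of the 8 was 2.29 under AS and 4.01 under SAS, against -0.01 and -0.06 for all genes tested. These changes are relative to the typical gene: with library totals as the only scaling the median of all genes was -0.49 under AS and -0.59 under SAS. Root markers moved with the treatments too, summing to between 46.2 and 73.3 scaled FPKM in CK root, 72.0 and 201 in AS root and 206 and 327 in SAS root, and their part in the root results was not tested.

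The 1A pair reached the highest levels of the family. Gh_A12G2493 stood at 1002, 992 and 1106 scaled FPKM in AS root and at 3608, 4130.2 and 4385 in SAS root. No library of a treated root group overlapped CK root, and AS and SAS did not overlap each other. Here and below, lack of overlap is a description. The share of all genes with groups so apart was not counted. Ranked by deposited FPKM within each library, this gene moved from places 542, 321 and 358 in CK root to places 5, 4 and 6 in SAS root.

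Gh_D12G2621 stood at 512, 419 and 488 scaled FPKM in AS root and at 2293, 3168 and 3089.9 in SAS root. Its ranks went from 9271, 4926 and 5579 in CK root to 23, 7 and 12 in SAS root. The fitted change of the D copy was log2 4.13 ± 0.32 beside 1.99 ± 0.27 for the A copy under AS (adjusted p = 2.95e-05 and 0.000488), and 6.71 ± 0.36 beside 3.95 ± 0.29 under SAS (adjusted p = 1.21e-06 and 5.57e-06).

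The AOX2 genes Gh_A03G1527 and Gh_Sca047319G01 had the largest fold changes of the family in root. Gh_A03G1527 went to 189, 185 and 290 scaled FPKM in AS root and to 743, 1020.4 and 1005 in SAS root, log2 changes of 5.78 ± 0.32 and 7.83 ± 0.35 (adjusted p = 1.03e-05 and 6.99e-07). Gh_Sca047319G01 was at 1.77, 0.955 and 0.825 in CK root, at 144, 124 and 146 in AS root and at 616, 843 and 818 in SAS root. Its log2 changes were 6.79 ± 0.33 under AS and 9.24 ± 0.36 under SAS (adjusted p = 6.6e-06 and 4.89e-07). In root this gene met the level filter through its treated libraries, with 1 of 3 CK root libraries at an FPKM of 1 or more.

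The other AOX2 pair changed less in root. Gh_A04G0970 was at 6.21, 7.06 and 7.70 scaled FPKM in CK root, at 17.6, 21.0 and 22.6 under AS and at 57.3, 46.9 and 45.8 under SAS. Gh_D04G1513 was at 2.40, 2.54 and 5.25 in CK root, at 13.3, 21.2 and 20.2 under AS and at 68.5, 53.3 and 56.4 under SAS. For both genes the 3 groups did not overlap, with log2 changes under SAS of 2.78 ± 0.17 and 4.07 ± 0.34 (adjusted p = 2.14e-06 and 1.1e-05).

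The family proteins annotated to the plastid had a different order of groups. Gh_A05G1491 was at 20.3, 23.1 and 35.3 scaled FPKM in CK root, at 118, 146 and 111 under AS and at 49.3, 44.0 and 66.4 under SAS. Gh_D05G1662 was at 45.5, 46.7 and 63.0 in CK root, at 155, 183 and 168 under AS and at 88.5, 73.5 and 112 under SAS. Both were highest under AS, with SAS between AS and CK and no overlap between groups. Their log2 changes were 2.20 ± 0.25 and 1.65 ± 0.21 under AS (adjusted p = 0.000226 and 0.000376). Under SAS they were 0.96 ± 0.24 and 0.76 ± 0.21 (adjusted p = 0.00732 and 0.00993), and with library totals as the only scaling these fell short of the threshold.

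Set directly against AS, SAS root was higher for 6 of the 8 genes and lower for 2. Of all genes tested, 20.7% were higher and 19.0% lower. The 6 are the genes described as 1A or 2, from 1.28 ± 0.16 for Gh_A04G0970 to 2.58 ± 0.30 for Gh_D12G2621. The 2 that were lower are Gh_A05G1491 (-1.24 ± 0.25, adjusted p = 0.00361) and Gh_D05G1662 (-0.89 ± 0.21, adjusted p = 0.00752).

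**Figure D2:**
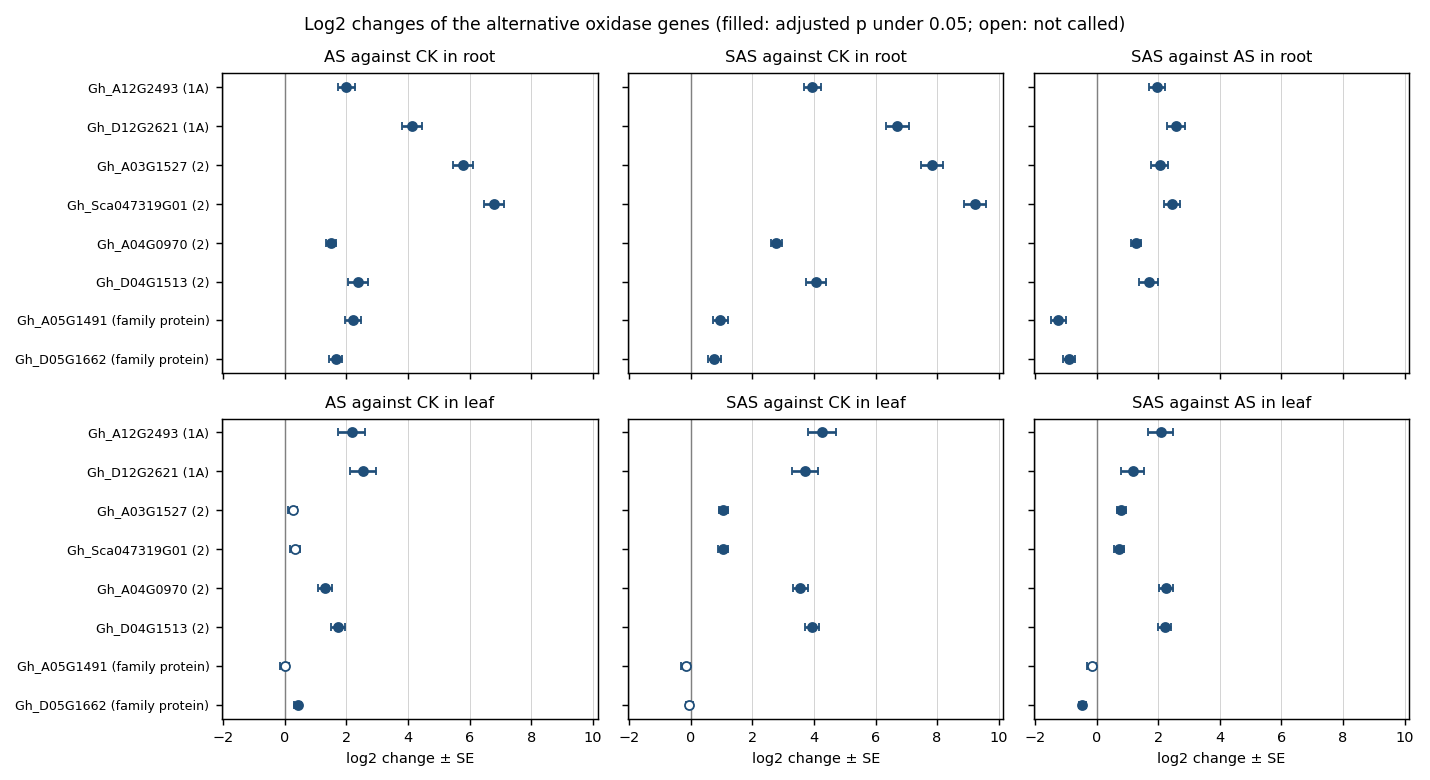
Log2 change with its SE for each of the 8 genes in the 6 treatment comparisons. In root against CK, Gh_Sca047319G01 and Gh_A03G1527 stand farthest from 0, whereas in leaf under SAS the 1A pair and Gh_A04G0970 and Gh_D04G1513 do.

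In leaf under AS 5 of the 8 genes rose and 3 did not pass the test, where 11.5% of 44761 genes tested were higher and 9.21% lower. Under SAS 6 rose and 2 did not pass, where 27.2% of all tested were higher and 26.0% lower. Leaf markers were also lower in SAS leaf, summing to between 4295 and 8483 scaled FPKM against 14968 to 19217 in CK leaf. Root markers were higher there, summing to between 11.4 and 23.3 against 5.05 to 6.87 in CK leaf, with 3 of 4 tested called higher. The part of either list in the leaf results was not tested.

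The A04 and D04 genes reached the highest levels of the family in SAS leaf. Gh_D04G1513 was at 7.51, 7.44 and 7.42 scaled FPKM in CK leaf, at 25.5, 18.3 and 27.6 under AS and at 95.0, 141 and 81.3 under SAS. Gh_A04G0970 was at 8.84, 8.12 and 9.52 in CK leaf, at 21.4, 16.8 and 24.7 under AS and at 74.9, 134 and 80.4 under SAS. For both genes all 3 groups were apart. The log2 changes of Gh_D04G1513 were 1.72 ± 0.22 under AS and 3.93 ± 0.24 under SAS (adjusted p = 0.00112 and 1.09e-05), and those of Gh_A04G0970 were 1.30 ± 0.23 and 3.56 ± 0.25 (adjusted p = 0.00451 and 1.64e-05).

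The 1A pair also rose in leaf, from a low level. Gh_A12G2493 was at 6.14, 6.92 and 8.72 scaled FPKM under AS and at 21.7, 50.8 and 15.8 under SAS, log2 changes of 2.17 ± 0.43 and 4.25 ± 0.46 (adjusted p = 0.00765 and 8.32e-05). Gh_D12G2621 was at 3.4, 4.09 and 4.52 under AS and at 7.43, 14.1 and 4.57 under SAS, changes of 2.54 ± 0.42 and 3.71 ± 0.43 (adjusted p = 0.00343 and 0.000118). SAS leaf library 2 was the highest of its group for both genes, and also for every AOX2 gene. Without it the SAS change of Gh_A12G2493 was 3.60, and the value of this gene in SAS against AS leaf went from 2.08 to 1.40. The SAS changes of Gh_D04G1513 and Gh_A04G0970 without that library were 3.67 and 3.24. In leaf, Gh_D12G2621 met the level filter through its treated libraries, with 1 of 3 CK leaf libraries at an FPKM of 1 or more.

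The AOX2 genes with the largest fold changes in root had smaller ones in leaf. Gh_A03G1527 was at 25.5, 19.5 and 22.8 scaled FPKM in AS leaf, which overlaps CK leaf, and at 31.7, 45.7 and 36.7 in SAS leaf, which does not. Its log2 changes were 0.25 ± 0.15 under AS (adjusted p = 0.26) and 1.06 ± 0.15 under SAS (adjusted p = 0.000311). Gh_Sca047319G01 had changes of 0.33 ± 0.17 (adjusted p = 0.198) and 1.05 ± 0.17 (adjusted p = 0.000658).

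The plastid-annotated pair did not pass the test in SAS leaf, with log2 values of -0.15 ± 0.15 for Gh_A05G1491 and -0.05 ± 0.11 for Gh_D05G1662 (adjusted p = 0.42 and 0.722). Under AS, Gh_D05G1662 was higher by 0.41 ± 0.11 (adjusted p = 0.0261). That call was lost when CK leaf library 2 or 3 or AS leaf library 1 or 3 was left out. It was also lost with all 18 libraries in one fit (adjusted p = 0.198). The pair, with the counts of both copies summed, did not pass the test (0.23, adjusted p = 0.21). Gh_A05G1491 was at -0.01 ± 0.15 (adjusted p = 0.967).

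SAS leaf set against AS leaf was higher for 6 of the 8 genes and lower for 1, against 20.7% and 19.3% of all genes tested. Gh_A04G0970 and Gh_D04G1513 had the largest values, 2.26 ± 0.23 and 2.21 ± 0.22. Gh_D12G2621 was higher by 1.18 ± 0.38 (adjusted p = 0.0321), a call lost without any 1 AS leaf library or without SAS leaf library 2 (0.62, adjusted p = 0.144). Gh_D05G1662 was lower (-0.46 ± 0.11, adjusted p = 0.00891). The pair, with the counts of both copies summed, did not pass the test (-0.33, adjusted p = 0.0547).

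The response of root was set against that of leaf with an interaction term over all 18 libraries. For AS, 5 of the 8 genes had a larger log2 change in root, against 14.5% of 48954 genes tested. For SAS the same count was 5, against 20.9%. Gh_Sca047319G01 had differences of 6.57 ± 0.34 for AS and 8.38 ± 0.35 for SAS (adjusted p = 1.72e-07 and 3.66e-09), and Gh_A03G1527 had 5.64 ± 0.34 and 6.96 ± 0.35 (adjusted p = 4.36e-07 and 1.3e-08). These were among the smallest p-values of all genes tested: by p the scaffold gene was placed 1 for AS and 2 for SAS.

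Within the A12 and D12 pair 1 copy passed this test. Gh_D12G2621 had a larger change in root by 1.70 ± 0.53 for AS and 3.18 ± 0.53 for SAS (adjusted p = 0.0272 and 0.000261), whereas Gh_A12G2493 had -0.08 ± 0.51 and -0.12 ± 0.51 (adjusted p = 0.951 and 0.888). With the counts of both copies summed, the pair had 0.20 for AS and 0.65 for SAS (adjusted p = 0.828 and 0.35). The sum does not depend on how shared reads were divided between the copies. It would depend on their handling if they were dropped or counted at both, which is not stated. The summed values are of the pair and not of Gh_D12G2621 alone. The AS call of Gh_D12G2621 was lost when only library totals were used for scaling (adjusted p = 0.0974). Leaving out CK root library 1, CK leaf library 3, AS root library 1 or AS leaf library 1 lost it as well, with adjusted p from 0.051 to 0.0921. Gh_A04G0970 and Gh_D04G1513 did not pass for either treatment, with values from -0.60 to 0.75, except that Gh_D04G1513 passed for AS without CK root library 3 (1.21, adjusted p = 0.0163). Gh_A05G1491 and Gh_D05G1662 had 2.32 ± 0.30 and 1.35 ± 0.23 for AS and 1.30 ± 0.30 and 0.99 ± 0.23 for SAS. The SAS calls of these plastid-annotated genes were lost with library totals as the only scaling, under which Gh_A04G0970 passed the test as smaller in root (-1.31, adjusted p = 0.00125).

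Summed over the 8 genes, the family stood at 371 ± 88.0 scaled FPKM (SD, n = 3 libraries) in CK root, 2198 ± 136 in AS root and 8827 ± 1133 in SAS root. In leaf the sums were 75.7 ± 4.74, 122 ± 13.5 and 323 ± 96.6. The family took 0.0412% of all counts in CK root and 0.616% in SAS root. The 1A genes made up 74.3% of the family's FPKM in CK root and 78.1% in SAS root, but 3.15% in CK leaf and 11.1% in SAS leaf. AOX2 genes made up 4.28% in CK root, 18.01% in AS root and 20.3% in SAS root, and between 63.3% (CK) and 81.6% (SAS) in leaf. The plastid-annotated genes went from 21.4% in CK root to 1.65% in SAS root. These shares are a description and were not tested. The AOX2 sum of SAS root, 1791.5 scaled FPKM, takes in 759 of the 488 bp scaffold gene Gh_Sca047319G01. The division of reads between that gene and Gh_A03G1527 is uncertain, and whether it is a whole gene of its own was not tested.

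**Figure D3:**
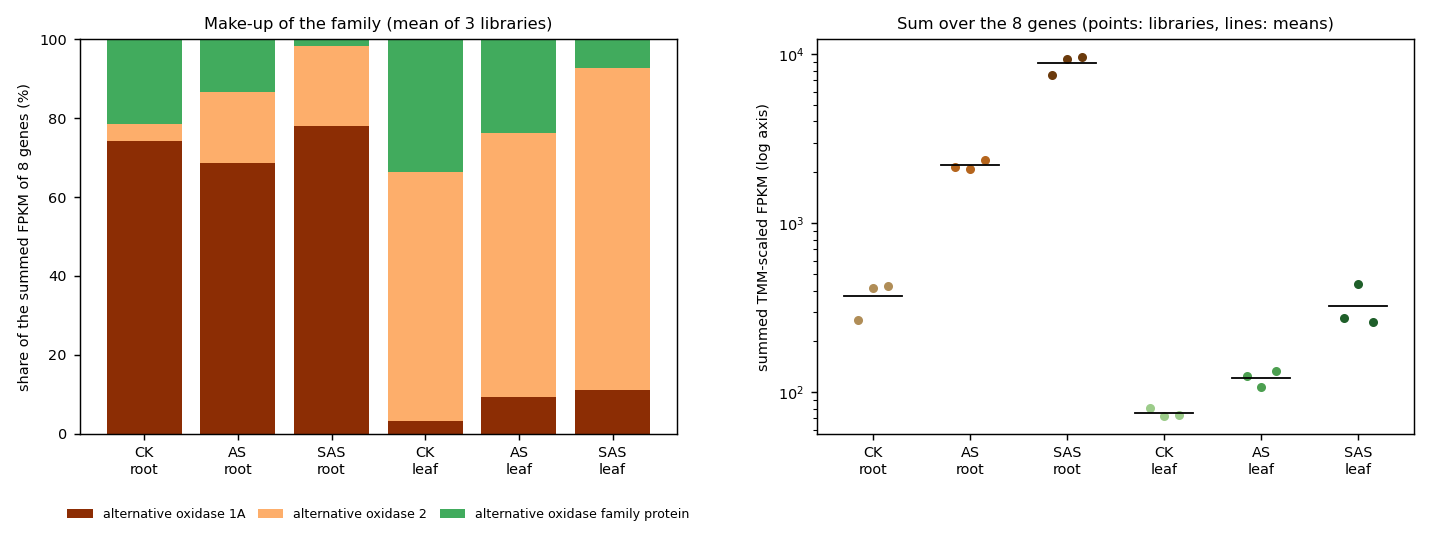
Left, mean share of each kind in the summed FPKM of the 8 genes by group; right, the summed scaled FPKM of each library (points, log axis) with the mean of 3 libraries (lines). Root is mostly 1A and leaf mostly AOX2, and the sum is highest in SAS root, 7524 to 9579.

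The D copy's share of a pair's FPKM is given as a description, since it was singled out after the values were seen. Exact permutation tests of treated against CK libraries were run on these shares, but for that reason they are not given as support. For A12 and D12 in root, the D copy held 8.66%, 9.92% and 9.35% in CK, 33.8%, 29.7% and 30.6% under AS, and 38.9%, 43.4% and 41.3% under SAS. Every treated root library lay above every CK root library. In leaf the share was 30.1% ± 5.30 (SD, n = 3) in CK, 35.6% ± 1.51 under AS and 23.2% ± 2.04 under SAS. The AS and SAS leaf libraries did not overlap each other, at 34.1% to 37.2% and 21.7% to 25.5%.

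For A04 and D04 the D share was 31.6% ± 7.75 in CK root, 46.8% ± 3.59 in AS root and 54.3% ± 0.990 in SAS root. In leaf it was 45.8% ± 2.004 in CK, 53.1% ± 1.12 under AS and 52.5% ± 3.01 under SAS. For A05 and D05 it was 66.7% ± 2.54, 57.5% ± 2.31 and 63.2% ± 0.928 in CK, AS and SAS root, and 53.6% ± 1.81, 60.6% ± 1.81 and 55.4% ± 2.78 in leaf.

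**Figure D4:**
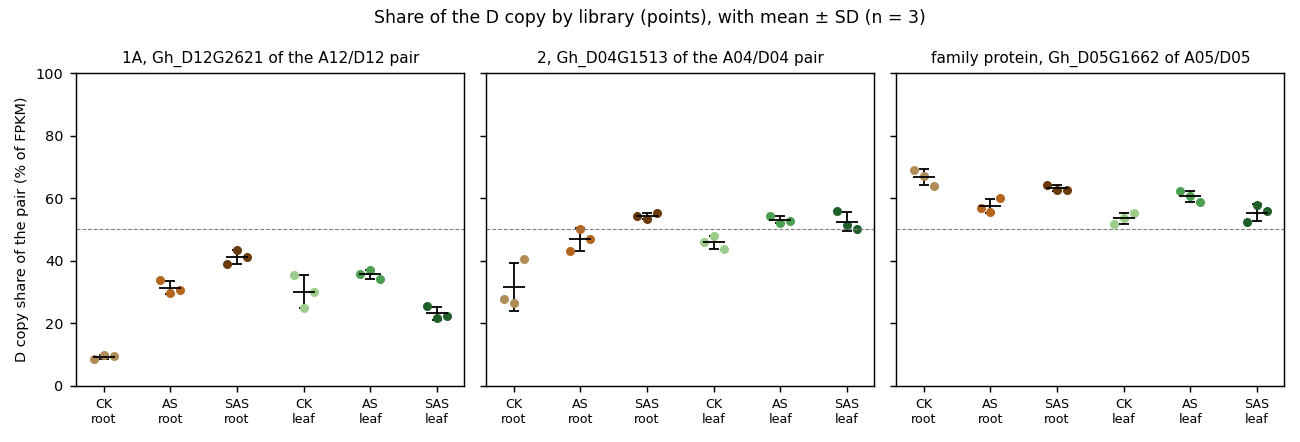
Share of the D copy in the FPKM of each A and D pair (percent), each point a library. For A12 and D12, CK root lies below 10% and every treated root library above 29%, while the leaf groups lie between 21.7% and 37.2%.

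Gene profiles most like those of a member were sought by Pearson correlation over the 18 libraries, which form 6 groups of 3. For Gh_D12G2621 the 5 closest described genes were a lysyl-tRNA synthetase 1 (Gh_A09G2435, r = 0.998), a WRKY DNA-binding protein 2 (Gh_D03G1371, 0.996), BTB/POZ and WD40 repeat proteins on A12 and D12 (Gh_A12G2101, 0.995, and Gh_D12G2273, 0.994) and ZCF37 (Gh_A02G0832, 0.995). Its own A copy had r = 0.972 and was placed 403. For Gh_D04G1513 the closest were a UDP-glucosyl transferase 73B3 (Gh_D13G0415, 0.973), a glutathione S-transferase tau 7 (Gh_A02G0263, 0.961), a BRO1-like domain protein (Gh_A12G1548, 0.958), a protein kinase (Gh_D08G0401, 0.954) and a bHLH protein (Gh_D05G0023, 0.952), and its A copy had 0.980. Gh_D12G2621 and Gh_D04G1513 had r = 0.305 with each other.

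Genes around the alternative oxidase in respiration were counted from lists matched on the deposited descriptions, and their counts are read beside the shares of all genes: 21.0% higher and 17% lower in AS root, 28.6% and 28.3% in SAS root, 11.5% and 9.21% in AS leaf, and 27.2% and 26.0% in SAS leaf. Type II NAD(P)H dehydrogenases feed electrons to ubiquinone without pumping protons, and 4 of 10 tested rose and 2 fell in root under AS and again under SAS, with medians of 0.04 and 0.13, or 4 and 5, and 4 and 3, with library totals only. Gh_D06G1339, NAD(P)H dehydrogenase B2, rose by 4.45 ± 0.23 under AS and 6.50 ± 0.25 under SAS in root (adjusted p = 7.42e-06 and 4.89e-07), and by 2.95 ± 0.25 in SAS leaf. A gene with the next ID, Gh_D06G1340, an alternative NAD(P)H dehydrogenase 1, rose by 3.27 ± 0.27 and 6.67 ± 0.32 in root. In leaf, 5 of 12 type II genes tested rose and 3 fell under AS, and 5 rose and 6 fell under SAS. The leaf medians were 0.02 and -0.01. Gh_D09G0867, an alternative NAD(P)H dehydrogenase 2, was lower in AS leaf (-1.16 ± 0.18).

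Complex I, the proton-pumping entry point, had 3 of 48 genes higher and 3 lower in AS root, and 3 higher and 18 lower in SAS root, with medians of -0.05 and -0.33. With library totals only these counts were 1 higher and 20 lower, and 0 higher and 30 lower. Complex II, succinate dehydrogenase, had 2 of 11 higher and 2 lower in AS root and 4 higher and 5 lower in SAS root, or 0 and 6, and 3 and 7, with library totals only. Of 7 uncoupling proteins and dicarboxylate carriers, 2 rose in AS root, and 4 rose and 1 fell in SAS root, or 2 higher and 2 lower in each with library totals only. Complex III and cytochrome c, which the alternative oxidase bypasses, had 12 of 37 higher and 0 lower in AS root and 16 higher and 1 lower in SAS root, but 6 higher and 8 lower, and 7 higher and 11 lower, with library totals as the only scaling. In leaf 18 of 37 were higher under AS, and 20 higher and 2 lower under SAS. This list pools complex III with cytochrome c, and cytochrome c genes made up a large part of those higher in AS root. In both tissues and under both treatments, its lowest p against CK was that of a cytochrome c gene. Its counts are therefore not those of complex III alone. CYTOCHROME C-1, Gh_A03G1921, which carries electrons to complex IV, rose by 2.41 ± 0.28 in AS root and 1.09 ± 0.16 in AS leaf.

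Complex IV, the terminal oxidase of the main chain, had 12 of 44 higher and 0 lower in AS root and 9 higher and 6 lower in SAS root, or 1 and 3, and 1 and 15, with library totals only. Among genes listed for mitochondrial dysfunction 4 of 8 rose in AS root, and 6 rose and 1 fell in SAS root, or 4 higher and 3 lower, and 4 and 2, with library totals only. The list's AS median of 3.22 lies in the gap between the 4 genes that rose and the other 4 and stands for neither. A mitochondrial small heat shock protein, Gh_D12G1971, rose by 7.95 ± 0.44 and 8.61 ± 0.45 in root and by 1.997 ± 0.23 and 1.80 ± 0.23 in leaf under AS and SAS. Of 24 plastid partners tested in leaf, genes of cyclic electron flow and carotenoid desaturation, 2 were higher and 17 lower in SAS leaf, with a median log2 change of -0.90. Of 66 leaf markers tested, 43 were lower there, with a median of -1.03, and their part in this count was not tested. Among the plastid partners, PGR5-LIKE A (Gh_D12G2223), which acts in cyclic electron flow, fell by 3.15 in SAS leaf. Another of the list, proton gradient regulation 5 (Gh_D10G1587), rose by 3.97 in AS root, 5.91 in SAS root and 4.19 in AS leaf. In AS leaf 2 of 24 partners were higher and 3 lower. In root 2 of 8 were higher and 4 lower under AS, and 3 higher and 3 lower under SAS. With library totals only the root counts were 2 and 5, and 3 and 4.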

How the data were processed

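Poly(A) RNA was sequenced with paired ends (Illumina HiSeq) in 18 libraries, per the labels' protocols. HISAT and StringTie are named in the submitters' processing notes, without versions; build, strandedness and counting rule are not given in the sources used here. The deposited table holds whole-number counts per gene, which the authors did not normalize, and FPKM values computed by the authors, per the file headers. A zero count has a deposited FPKM of 0.0001. Even numbers made up 56.1% to 59.8% of the counts from 1 to 20, so counts may not be independent fragments.

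Counts were fitted with edgeR 4.0.16 (TMM scaling, quasi-likelihood test, Benjamini-Hochberg adjustment over all genes tested, called at an adjusted p under 0.05). Treatment comparisons used the 9 libraries of a tissue and genes with FPKM of at least 1 in 3 of them; comparisons of root with leaf used all 18. The SE is the log2 change divided by the square root of F. The method was also run on simulated data with the same spread for every gene, which does not show how it performs on these data. Members, gene lists and tests were chosen with earlier results of these data known. All members are named; from the lists, only genes with the lowest p of their list in a treated against CK comparison could be named, and Gh_D06G1340 was named after its values were seen. Alternatives were DESeq2 1.42.0 (Wald test and size factors), limma 3.58.1 on log2(FPKM + 1) and log2(FPKM + 0.1), library totals only, no filter, all 18 libraries in one fit, a replicate block, each library left out and, chosen after seeing the data, summed copies. Sequences of these genes were not used here.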

Additional observations from a re-analysis of the deposited data

Results flagged for a closer look

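Of the 8 genes, 5 differed between root and leaf in their response to AS, and 5 in their response to SAS, by an interaction term in edgeR's quasi-likelihood test over all 18 libraries. Each value is the log2 change in root minus that in leaf. For AS the differences were 6.57 for Gh_Sca047319G01, 5.64 for Gh_A03G1527, 2.32 for Gh_A05G1491, 1.70 for Gh_D12G2621 and 1.35 for Gh_D05G1662. For SAS they were 8.38 for Gh_Sca047319G01, 6.96 for Gh_A03G1527, 3.18 for Gh_D12G2621, 1.30 for Gh_A05G1491 and 0.99 for Gh_D05G1662. In all of these the change in root was the larger, as it was for 14.5% (AS) and 20.9% (SAS) of all 48954 genes tested. With library totals as the only scaling, the AS call of Gh_D12G2621 and the SAS calls of Gh_A05G1491 and Gh_D05G1662 were lost. With the counts of both copies summed, the A12 and D12 pair was not called for AS or SAS (adjusted p = 0.828 and 0.35). Those values are of the pair and not of Gh_D12G2621 alone.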

How the results depend on the processing

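Of 624 values of the 8 genes recomputed under other settings, 582 kept their direction and side of the threshold, including all 72 under the DESeq2 Wald test and all 72 under its size factors. Of 864 values with a library left out, 838 did. The 624 include 72 with copies summed, of which 63 kept theirs. In these a pair's value stands for both of its genes. Values below with copies summed are of the pair and not of the gene named. For the SAS response of root against leaf, 5 genes were called higher and 0 lower; 3 were higher and 1 lower under library totals only and under both limma settings. Reversals were all of values that had not passed the test. Gh_A05G1491 in AS leaf was 0.06 with library totals only, 0.065 and 0.070 with limma at pseudocounts 1 and 0.1, 0.011 with no filter and 0.23 with copies summed, and ran from -0.084 to 0.17 with a library left out. Gh_A04G0970 in the AS response was -0.33 with totals, and -0.35 and -0.34 with limma. Gh_D04G1513 in the SAS response was -0.39 with totals, -0.52 and -0.33 with limma and -0.22 with copies summed. Gh_A12G2493 was 0.20 (AS response) and 0.65 (SAS response) with copies summed, and ran from -0.42 to 0.10 and from -0.46 to 0.53 with a library left out. In SAS leaf, leave-one-out values ran from -0.27 to 0.015 for Gh_A05G1491 and from -0.086 to 0.059 for Gh_D05G1662. The cause was not tested.

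Replicate numbers did not pair the libraries: correlations of same-numbered libraries ran from -0.0977 to 0.0526 in root and from -0.132 to 0.126 in leaf, and a library matched its own number best in 2 of 18 cases in each tissue. With the replicate block 71 of 72 values kept their call, Gh_D12G2621 in SAS against AS leaf had 1.13 (adjusted p = 0.064), and calls over all genes went from 15044 to 13039 in AS root and from 9268 to 7141 in AS leaf.

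Over all genes, AS leaf calls were 9268, or 4017 with 18 libraries in one fit and 4520 to 11756 with a library left out; SAS against AS leaf calls were 17919, or 8831 in one fit. AS response calls were 13230, or 19983 with totals and 21044 and 20537 with limma. The share of calls that were higher was 55.2% in AS root and 50.2% in SAS root, or 24.4% and 28.6% with totals. Other shares moved by over 10 points too: 55.5% in AS leaf was 70.9% with totals, 51.7% in SAS against AS leaf was 62.8% in one fit, 53.6% and 51.1% in the AS and SAS responses were 15.1% and 21.3% with totals, and 47.5% in CK root against leaf was 37.2% with limma at pseudocount 1.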

Other observations

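The ninth gene with the description, Gh_A03G1526 (alternative oxidase 2), lies 1964 bp from Gh_A03G1527 and stayed under the level rule. Its deposited FPKM was at least 1 in 1 library, SAS root 2, at 1.39, and 0.475 was the value the rule compared with 1. No gene lies just inside the rule: the fewest libraries with an FPKM of at least 1 among the 8 was 16 of 18, for Gh_D12G2621 and Gh_Sca047319G01.

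The deposited annotation gives 7 alternative oxidase genes the same KEGG orthology entry as 4 threonyl-tRNA synthetase genes, under aminoacyl-tRNA synthesis, so a pathway count by that entry mixes both. A gene described as a P-type ATP-ase 1 is the nearest neighbour of Gh_A04G0970, at 429 bp, of Gh_D04G1513, at 441 bp, and of Gh_A03G1526, at 1714 bp.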
